A study of Mus musculus with 20 samples.

Results

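The 6 genes described here form the GnRH, kisspeptin and neurokinin B system: Gnrh1, Kiss1, Kiss1r, Tac2, Tacr3 and Gnrhr. They were found by symbol among the 25239 genes of the count table, and all 6 had reads, but 4 of 6 (Gnrh1, Kiss1r, Tac2 and Tacr3) passed edgeR's filter on low counts over the 20 mice. Bulk RNA-seq libraries came from the preoptic area (POA) of 20 males in 4 groups of 5. Control SS mice and control OS mice carried no transgene as far as the labels give it and had been paired at postnatal day (PND) 20 with a male (same sex, SS) or a female (opposite sex, OS). dnFGFR SS mice and dnFGFR OS mice were housed likewise and carried a dominant negative FGF receptor, a truncated FGFR1 without its kinase domain that is driven by a rat GnRH promoter in GnRH neurons. By the methods of the study, dnFGFR breeders were homozygous, controls of a matching background came from matings of heterozygous siblings, OS mice bred and raised pups, and all mice were killed at PND320 after 300 days with the partner. Housing with a female, mating and the presence of pups therefore cannot be told apart. Each library is 1 mouse, and the tissue was a dissected block of the POA with no sorting of cells. The study left out outlying samples in its own tests, which the labels do not name, and all 20 mice are kept here.

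GnRH neurons lie scattered in the POA and release GnRH, the peptide encoded by Gnrh1, into the portal blood, where it acts on its receptor Gnrhr on pituitary gonadotropes. Kisspeptin, encoded by Kiss1, is the strongest known activator of GnRH neurons and acts through Kiss1r on their surface. In the arcuate nucleus, kisspeptin neurons also make neurokinin B, encoded by Tac2, which acts through the receptor Tacr3 and, with dynorphin, paces the pulses of GnRH. In humans, loss of function of any of these genes can cause hypogonadotropic hypogonadism.

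The peptides of Gnrh1, Kiss1 and Tac2 are cut from longer precursors at the same kind of signal, and the sequences are shown because they identify what the reads of these 3 genes encode. Each line gives the 10 codons that encode the mature GnRH decapeptide, kisspeptin-10 and neurokinin B, read 5′ to 3′ on the coding strand from GENCODE M21 transcripts of GRCm38. Capitals mark the codons that follow, for a glycine that is used to amidate the peptide and for the basic pair where the precursor is cut.
Gnrh1: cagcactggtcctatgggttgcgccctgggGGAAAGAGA
Kiss1: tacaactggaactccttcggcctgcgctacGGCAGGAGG
Tac2: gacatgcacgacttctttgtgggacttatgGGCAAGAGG
The Gnrh1 stretch lies in exon 2 of 4 at chr14:67746409-67746447 and covers codons 22 to 31 of 90 for the peptide. That of Kiss1 lies in exon 2 of 2 at chr1:133329580-133329618, at codons 106 to 115 of 126. That of Tac2 lies in exon 5 of 7 at chr10:127729116-127729154, at codons 82 to 91 of 116. All 3 stretches are on the plus strand and are coding.

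By RefSeq on GRCm38, Gnrh1 spans chr14:67745181-67749440, Kiss1 chr1:133321887-133329722, Kiss1r chr10:79916952-79924088, Tac2 chr10:127724478-127731768 and Tacr3 chr3:134829007-134934581, all on the plus strand. Gnrhr spans chr5:86180754-86197901 on the minus strand. The 5′ end of Kiss1 overlaps Golt1a, which had 81 reads in all 20 mice together, so reads of these neighbours may have been divided between them. R3hdm4, with 165791 reads over the 20 mice, lies 22 bases from Kiss1r. Gnrh1 overlaps Gm52126, a gene for which no count was used here.

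Reads counted per mouse ran from 32353578 to 39871353. In dnFGFR OS replicate 5 only 18416 genes had a read, against 19101 to 19659 in the remaining mice, so many of the values are also given without this mouse. Sequence of the transgene could add reads to Fgfr1, the endogenous receptor gene, but Fgfr1 lay between 81.6 and 102 CPM (reads scaled to a common library size, here with TMM normalization) in all 20 mice and did not pass the test between genotypes (log2 fold change -0.02, SE 0.0411, edgeR quasi-likelihood test, adjusted p = 0.937), so this gene checks no label. No sacrifice month held mice of both genotypes, since the 10 controls were taken in summer (June or July) and the dnFGFR mice in May, apart from 1 taken in November. Date and genotype therefore cannot be told apart. The labels do not say whether mice of a group shared a cage or litter.

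Per kilobase of exon, Tac2 was the most abundant of the 6 genes, at 7.38 ± 1.55 RPKM (SD, n = 20 mice), where RPKM scales reads to exon length and library size, followed by Tacr3 at 3.59 ± 0.663 RPKM, Gnrh1 at 2.61 ± 0.757 RPKM and Kiss1r at 1.93 ± 0.297 RPKM. Kiss1 stood at 0.204 ± 0.198 RPKM and Gnrhr at 0.00356 ± 0.00672 RPKM. Tac2 lay above Tacr3 in 19 of 20 mice, Tacr3 above Gnrh1 in 15, Gnrh1 above Kiss1r in 16, and Kiss1r above Kiss1 in all 20. The neighbours Tacr3 and Gnrh1, and Gnrh1 and Kiss1r, thus overlapped in their spread over mice. In dnFGFR SS mice the order of the means of this last pair was the other way round, with Kiss1r at 2.09 ± 0.271 RPKM and Gnrh1 at 1.97 ± 0.250 RPKM (SD, n = 5). Kiss1r, a receptor, had about 264.6 reads per mouse where its ligand gene Kiss1 had 5.6. Reads were counted on RefSeq genes, but exon lengths came from GENCODE M21 with all transcripts of a gene merged. Close ranks in RPKM may therefore depend on the gene models.

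**Figure D1:**
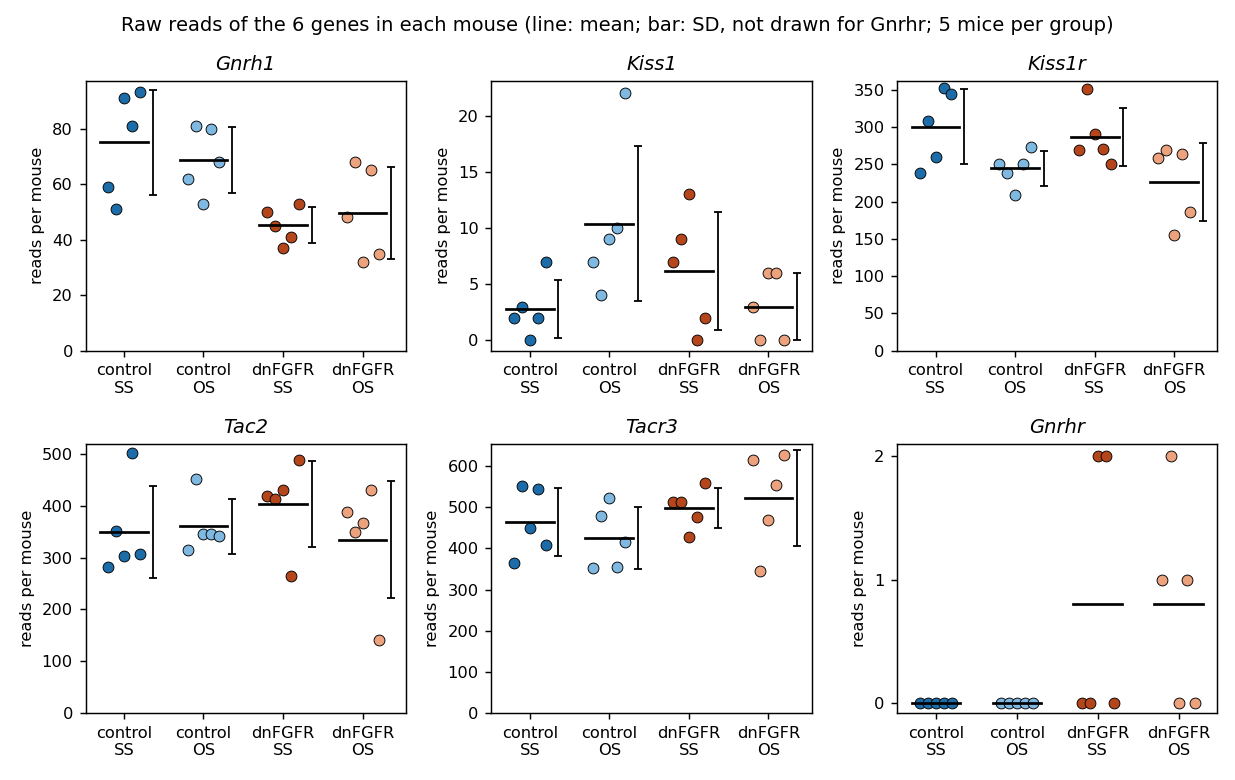
Raw reads per mouse (vertical axis, counts, linear from 0) of each gene in the 4 groups, with 1 point per mouse, a line at the group mean and a bar of 1 SD except for Gnrhr. Gnrh1 spans 51 to 93 reads in control mice and 32 to 68 in dnFGFR mice, while Gnrhr is at 0 in all 10 control mice and reaches 2 reads in dnFGFR mice.

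Gnrh1, the precursor of GnRH, was lower in dnFGFR mice than in control mice over both housings. Control SS mice had 59, 51, 91, 81 and 93 reads (replicates 1 to 5) and control OS mice 62, 81, 53, 80 and 68. dnFGFR SS mice had 50, 45, 37, 41 and 53 reads and dnFGFR OS mice 48, 68, 32, 65 and 35. The dnFGFR SS mice clustered at the low end, whereas the dnFGFR OS mice split, with replicates 3 and 5 at the lowest counts of all 20 mice and replicates 2 and 4, like dnFGFR SS replicate 5, inside the control range of reads. In CPM the means were 2.02 ± 0.454 (SD, n = 5) in control SS, 2.01 ± 0.372 in control OS, 1.27 ± 0.160 in dnFGFR SS and 1.42 ± 0.416 in dnFGFR OS mice. The SD of the raw counts was 2.20 times the counting error alone (the square root of the mean) in control SS, 1.44 times in control OS, 0.966 times in dnFGFR SS and 2.36 times in dnFGFR OS mice.

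Over both housings, dnFGFR mice had 0.667 times the Gnrh1 level of control mice (log2 fold change -0.58, SE 0.150, 95% interval -0.89 to -0.27, edgeR quasi-likelihood test with housing as a covariate, adjusted p = 0.0657, threshold 0.1). Gnrh1 was the only 1 of the 4 tested members to pass in this comparison, in which 1.33% of 17445 genes were called and 0.785% were called as lower in dnFGFR mice. In CPM, 6 of 10 dnFGFR mice lay below all 10 control mice, although dnFGFR SS replicate 5 (1.397 CPM) did so only narrowly, the lowest control mouse being at 1.401 CPM. The difference of -0.672 CPM had p = 0.000787 in an exact two-sided permutation of genotype within housing (63504 splits, smallest possible p 3.1e-05). The edgeR call did not hold without control SS replicate 3, 4 or 5 (adjusted p = 0.129, 0.113 and 0.128), control OS replicate 2 or 4 (0.133 and 0.132), dnFGFR SS replicate 2, 3 or 4 (0.103, 0.125 and 0.115) or dnFGFR OS replicate 3 (0.123), that is in 9 of 20 cases, while the log2 fold change stayed between -0.64 and -0.53. Without dnFGFR OS replicate 5 it was -0.55 (adjusted p = 0.0854). In a bulk sample, fewer GnRH neurons and less Gnrh1 RNA per neuron cannot be told apart.

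Within SS housing alone, the Gnrh1 difference was -0.67 on the log2 scale (SE 0.202, edgeR, adjusted p = 0.308), and 0 of the 4 tested members passed where 0.2% of 16992 genes did. The exact permutation test of 5 against 5 mice gave p = 0.0159, with 4 of 5 dnFGFR SS mice below all control SS mice. Within OS housing it was -0.50 (SE 0.242, adjusted p = 0.713), and again 0 of 4 members passed where 0.0531% of 16941 genes did. The exact permutation test gave p = 0.0397 in OS mice, with 3 of 5 dnFGFR mice below all control mice, and p = 0.0873 without dnFGFR OS replicate 5. In OS mice this p rose above 0.05 on leaving out each of 7 of the 10 mice, up to 0.111. With 5 mice against 5, the smallest p of this test is 0.00794.

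Housing did not shift Gnrh1 by more than its spread. OS minus SS was -0.01 on the log2 scale in control mice (SE 0.205, 95% interval -0.44 to 0.43, edgeR, adjusted p = 0.999) and 0.16 in dnFGFR mice (SE 0.242, 95% interval -0.36 to 0.69, adjusted p = 0.889). With 1 mouse left out the value in dnFGFR mice ran from 0.0545 (without dnFGFR OS replicate 2) to 0.279 (without dnFGFR OS replicate 3), and it was 0.25 without dnFGFR OS replicate 5. On the sacrifice dates that held both housings (2 per genotype), with the date as a block, these values were 0.10 in control mice and -0.18 in dnFGFR mice (edgeR, adjusted p = 1 in both). The test of the difference in response, the housing by genotype interaction, gave 0.17 (SE 0.303, 95% interval -0.46 to 0.80, adjusted p = 0.966), and with 1 mouse left out it ran from 0.0688 (without dnFGFR OS replicate 2) to 0.296 (without dnFGFR OS replicate 3), with 0.263 without dnFGFR OS replicate 5.

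The nearest genes on either side of Gnrh1, Kctd9 and Dock5, did not pass between genotypes, with log2 fold changes of 0.09 (SE 0.0720, adjusted p = 0.708) and -0.12 (SE 0.0957, adjusted p = 0.700, both edgeR). Of 90 genes tested within 5 Mb of Gnrh1, 0 others were called between genotypes over both housings, where 1.33% of all 17445 genes were. At so low a share, a count of 0 among 90 genes says little.

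**Figure D2:**
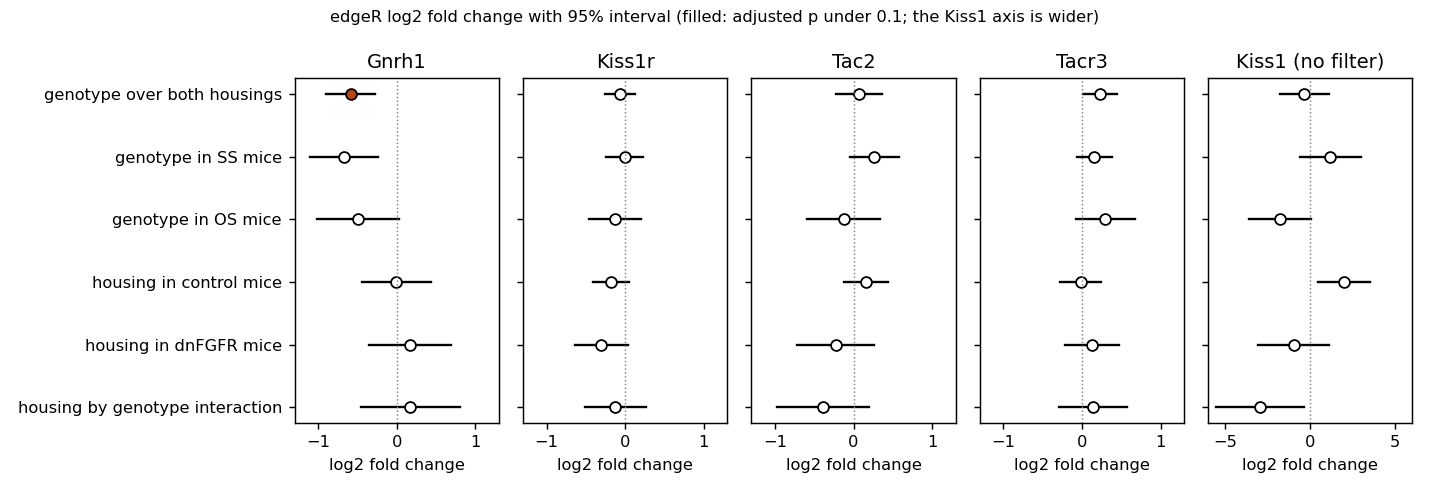
Log2 fold change (horizontal axis) with its 95% interval for 5 of the 6 genes (Gnrhr, at or under the floor in every mouse, is not drawn) in the 6 comparisons, with genotype as dnFGFR against control and housing as OS against SS. The filled point, Gnrh1 between genotypes over both housings at -0.58, is the only value with an adjusted p under 0.1, and Kiss1, tested without the filter, has a wider axis.

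Kiss1, the kisspeptin precursor, was near the limit of detection. Control SS mice had 2, 3, 0, 2 and 7 reads and control OS mice 7, 4, 9, 10 and 22. dnFGFR SS mice had 7, 9, 13, 0 and 2 reads and dnFGFR OS mice 3, 0, 6, 6 and 0. The highest count, 22, was in control OS replicate 5, and all 4 groups overlapped in their reads. Of 20 mice, 16 had any read of Kiss1.

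In CPM, 4 of 5 control OS mice lay above all control SS mice, with means of 0.302 and 0.0741 CPM and p = 0.0159 by the exact permutation test. Without control OS replicate 5 the difference fell from 0.228 to 0.147 CPM, with p = 0.0318 in the exact permutation test. Control mice of both housings shared 2 sacrifice dates, on each of which the order was the same, with 3 reads in the SS mouse against 7, 4 and 9 in the OS mice on the first date, and 0 against 10 and 22 on the second. Kiss1 did not enter the edgeR test behind the filter. Fitted without the filter, OS minus SS was 1.97 on the log2 scale in control mice (SE 0.720, unadjusted p = 0.0139, adjusted p = 0.584), so it did not pass over all genes.

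In dnFGFR mice the means stood the other way round, with 0.174 CPM for SS mice and 0.0867 CPM for OS mice, with p = 0.286 in the exact permutation test and a log2 fold change of -0.97 (SE 0.981). Without the filter, the interaction term was -2.94 (SE 1.25, 95% interval -5.53 to -0.36, edgeR, unadjusted p = 0.0271, adjusted p = 1), so the housing response of Kiss1 was not shown to differ between genotypes over all genes. Among OS mice, Kiss1 was at 0.302 CPM in control and 0.0867 CPM in dnFGFR mice (p = 0.0318 by exact permutation). That p was 0.0794 without dnFGFR OS replicate 5, 0.0635 without control OS replicate 5, 0.0714 without dnFGFR OS replicate 1 and 0.0794 without dnFGFR OS replicate 2. Among SS mice the order was reversed, at 0.0741 CPM in control and 0.174 CPM in dnFGFR mice (p = 0.230, exact permutation).

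Kiss1r, the kisspeptin receptor, had 239, 308, 260, 352 and 345 reads in control SS mice and 251, 238, 209, 251 and 274 in control OS mice. dnFGFR SS mice had 269, 351, 291, 271 and 250 reads and dnFGFR OS mice 259, 269, 155, 264 and 186. OS mice were on the low side in both genotypes, but each OS group overlapped its SS group, and the lowest counts were in dnFGFR OS replicates 3 and 5. The means were 8.08 ± 0.810 CPM in control SS, 7.15 ± 0.782 in control OS, 8.04 ± 1.05 in dnFGFR SS and 6.51 ± 1.32 in dnFGFR OS mice (SD, n = 5).

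OS minus SS for Kiss1r was -0.18 on the log2 scale in control mice (SE 0.109, edgeR, adjusted p = 0.783), and 0 of the 4 tested members passed in this comparison, where 0.124% of 17004 genes did. In dnFGFR mice it was -0.30 (SE 0.155, adjusted p = 0.729), and 0 of 4 members passed where 0% of 16944 genes did. DESeq2 called 5 genes in that comparison, and 1138 genes had an unadjusted p under 0.05 in edgeR. That number was 2860 without dnFGFR OS replicate 2 and 1001 without dnFGFR OS replicate 5, with 0 genes called in both cases. The exact permutation p was 0.103 in control and 0.0952 in dnFGFR mice, and in dnFGFR mice it was 0.167 without replicate 5 of the OS group but 0.0238 without replicate 5 of the SS group. On the shared dates the log2 differences were -0.13 and -0.25, with the same direction. Between genotypes over both housings Kiss1r differed by -0.07 (SE 0.0926, 95% interval -0.26 to 0.12, adjusted p = 0.851), and by -0.04 without dnFGFR OS replicate 5.

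Tac2, the neurokinin B precursor, had 281, 351, 303, 501 and 307 reads in control SS mice and 315, 452, 345, 346 and 341 in control OS mice. dnFGFR SS mice had 419, 412, 430, 264 and 487 reads and dnFGFR OS mice 387, 349, 366, 430 and 141. The groups overlapped, and dnFGFR OS replicate 5 was far under the rest, at 4.31 CPM where the other mice lay at 7.82 CPM or above. Between genotypes over both housings the log2 fold change was 0.07 (SE 0.143, 95% interval -0.23 to 0.37, edgeR, adjusted p = 0.916), and 0.17 (adjusted p = 0.510) without that mouse. OS minus SS was 0.16 in control mice (SE 0.130, adjusted p = 0.846) and -0.23 in dnFGFR mice (SE 0.228, adjusted p = 0.846), the latter -0.04 without dnFGFR OS replicate 5. The value in control mice ran from 0.0792 (without control OS replicate 2) to 0.29 (without control SS replicate 4) with 1 mouse left out. In OS mice the genotype difference of -0.13 turned to 0.06 without dnFGFR OS replicate 5. In SS mice it was 0.26 (SE 0.146, edgeR, unadjusted p = 0.0926, adjusted p = 0.657). The exact permutation p in SS mice was 0.182, and 0.0476 without control SS replicate 4 or without dnFGFR SS replicate 4.

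The interaction term of Tac2 was -0.39 (SE 0.280, adjusted p = 0.963). For the interaction, 0 of the 4 tested members passed where 0% of 17445 genes did. In edgeR, 595 genes had an unadjusted p under 0.05, and DESeq2 called 1 gene. The 595 became 1987 without dnFGFR OS replicate 2 and 455 without dnFGFR OS replicate 5, with 0 genes called in both cases. The 95% interval of the Tac2 term ran from -0.97 to 0.19, and without dnFGFR OS replicate 5 the term was -0.20 (adjusted p = 1).

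Tacr3, the neurokinin B receptor, had 364, 550, 448, 544 and 409 reads in control SS mice and 352, 478, 523, 354 and 416 in control OS mice. dnFGFR SS mice had 511, 512, 427, 476 and 558 reads and dnFGFR OS mice 615, 346, 469, 553 and 627. In CPM, 3 of 10 dnFGFR mice lay above all control mice and 1, dnFGFR OS replicate 2, lay below all of them. The mean was 12.4 ± 1.77 CPM in control and 14.6 ± 2.73 CPM in dnFGFR mice (SD, n = 10), a log2 fold change of 0.23 (SE 0.104, 95% interval 0.01 to 0.44, edgeR, unadjusted p = 0.0386, adjusted p = 0.410). The exact permutation p was 0.0577. It was 0.121 without dnFGFR OS replicate 5 and 0.00646 without dnFGFR OS replicate 2, so single mice set the side of 0.05 on which it fell. Housing gave -0.02 in control mice (SE 0.120, adjusted p = 0.989) and 0.12 in dnFGFR mice (SE 0.159, adjusted p = 0.877). The latter was 0.03 without dnFGFR OS replicate 5 and 0.26 without dnFGFR OS replicate 2.

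Gnrhr, the GnRH receptor, was at 0 reads in all 10 control mice. dnFGFR SS mice had 0, 0, 2, 2 and 0 reads and dnFGFR OS mice 1, 2, 0, 1 and 0. The exact permutation test between genotypes over both housings gave p = 0.0370, and from 0.0106 to 0.0370 with 1 mouse left out. Fitted without the filter, Gnrhr had unadjusted p = 0.0109 and adjusted p = 0.289 in edgeR, so it did not pass over all genes. Every library was under 3 reads, the level that a count of 0 allows (0.0752 to 0.0927 CPM per control library). No fold is given, and in a single mouse these reads cannot be told from 0. Over 20 mice, 8 reads were counted in all.

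Of the 30 exact tests of members (6 genes in 5 comparisons), 6 had an unadjusted p under 0.05: Gnrh1 between genotypes over both housings, in SS and in OS mice, Kiss1 between housings in control mice and between genotypes in OS mice, and Gnrhr between genotypes. The tests share mice and are not independent. The shares over all genes that follow come from another test, edgeR, on genes that passed its filter, so Kiss1 and Gnrhr are not among them. The exact test was not run over all genes. Over all genes tested, edgeR gave an unadjusted p under 0.05 to 1957 of 17445 genes between genotypes over both housings, 1467 of 16992 in SS mice, 1190 of 16941 in OS mice and 1224 of 17004 between housings in control mice.

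With group means removed, the 6 genes showed no shared variation over the 20 mice that passed the test. The highest Pearson r was between Gnrh1 and Kiss1r (r = 0.446, permutation p = 0.116, adjusted p over the 15 pairs 0.513; Spearman rho = 0.427, permutation p = 0.115, adjusted p = 0.601), and it was 0.352 without the 2 mice farthest from the median of Gnrh1. The lowest was between Tacr3 and Gnrhr (r = -0.405, permutation p = 0.101, adjusted p = 0.513; rho = -0.238, permutation p = 0.351, adjusted p = 0.601). Without dnFGFR OS replicate 5 these were r = -0.309 (permutation p = 0.249, adjusted p = 0.622) and rho = -0.0703 (permutation p = 0.761, adjusted p = 0.878). The value rests on the 8 reads of Gnrhr, and r was -0.0857 without the 2 mice farthest from the median of Tacr3. The precursor and receptor of neurokinin B, Tac2 and Tacr3, had r = -0.102 (permutation p = 0.764, adjusted p = 0.818; rho = 0.221, permutation p = 0.401, adjusted p = 0.601). It became 0.363 without the 2 mice farthest from the median of Tac2 and 0.406 without dnFGFR OS replicate 5 (permutation p = 0.0558, adjusted p = 0.622; rho = 0.553, permutation p = 0.0199, adjusted p = 0.298), so its sign rests on that mouse. Kiss1 and Kiss1r had r = 0.207 (permutation p = 0.457, adjusted p = 0.778; rho = 0.321, permutation p = 0.226, adjusted p = 0.601), and 0.36 without the 2 mice farthest from the median of Kiss1.

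**Figure D3:**
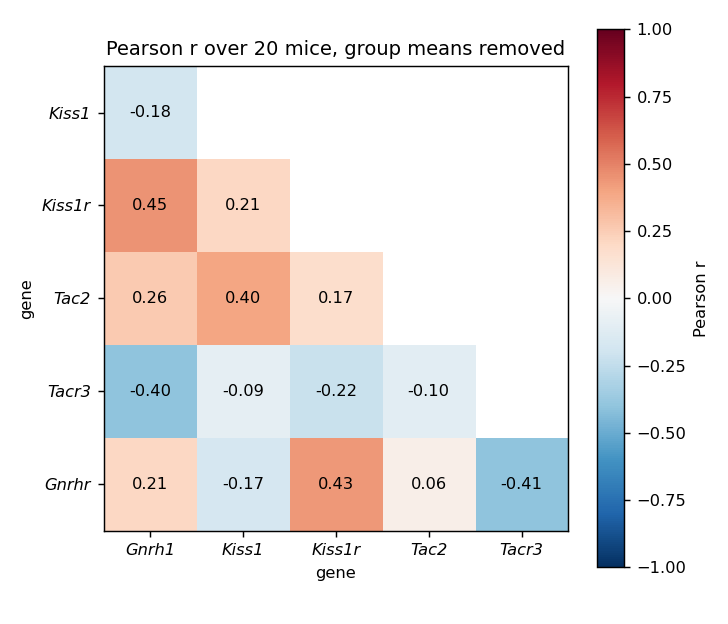
Pearson r between each pair of the 6 genes over the 20 mice on log2 CPM with group means removed, coloured from -1 (blue) to 1 (red) with the value in each cell. The values run from -0.405 for Tacr3 and Gnrhr to 0.446 for Gnrh1 and Kiss1r.

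Among the 17445 genes that passed the filter, those most like each member over the 20 mice, by Pearson r of log2 CPM without removal of group means, are given as a description. For Gnrh1 they were Rps2 (r = 0.795), A330094K24Rik (0.771) and G630016G05Rik (0.769). For Kiss1r they were Mir6915 (0.886), Mir7654 (0.819) and Trim46 (0.807). For Tac2 they were Slc27a3 (0.912), Podxl2 (0.909) and Gm15612 (0.905), and for Tacr3 Pik3cg (0.838), Nova1 (0.818) and Kctd9 (0.809), the last being the neighbour of Gnrh1 named above. All points share the depth of their library, and dnFGFR OS replicate 5 takes part in each value.

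The other genes of the pathway, in 7 lists, had 2 calls between genotypes over both housings, where 1.33% of all 17445 genes were called. Of the genes that process or degrade the peptides, all 8 were tested and 1 rose in dnFGFR mice over both housings: Pcsk1, the prohormone convertase that cuts many neuropeptide precursors, at 30.5 and 34.6 CPM in control SS and OS and 35.5 and 42.4 CPM in dnFGFR SS and OS mice (log2 fold change 0.26, SE 0.0634, edgeR, adjusted p = 0.0540). The list median was 0.05 against -0.0004 over all genes. The call of Pcsk1 was lost without dnFGFR SS replicate 1 (adjusted p = 0.119) and without dnFGFR OS replicate 3 (0.105).

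Of 18 genes known from the development of GnRH neurons, 17 were tested and 1 fell: Sox10, a transcription factor of the neural crest that in the adult brain marks oligodendrocyte lineage cells (log2 fold change -0.31, SE 0.0647, edgeR, adjusted p = 0.0203). It stood at 79.2 and 67.5 CPM in control SS and OS and at 62.2 and 56.3 CPM in dnFGFR SS and OS mice. The list median was -0.03, with 12 of 17 genes below 0.

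Among the transcription factors that act on Gnrh1, 0 of 11 passed, with a median of -0.17 and 8 of 11 below 0. Six3 was at -0.14 (SE 0.0557, adjusted p = 0.307) and Otx2, named for its p between housings in control mice, at -0.29 (SE 0.388, adjusted p = 0.850). Otx2 is also a marker of choroid plexus, whose summed markers ran from 37.5 to 2181 CPM over the mice. Among genes of puberty timing 0 of 6 passed, although all 6 lay below 0 (median -0.15), with Nkx2-1 at -0.29 (SE 0.101, adjusted p = 0.231) and Irf2bpl at -0.11 (SE 0.0581, adjusted p = 0.522).

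Of the tachykinin and dynorphin partners, 4 of 6 were tested and 0 passed (median -0.07). Pdyn, the dynorphin precursor, was at -0.11 (SE 0.0990, adjusted p = 0.751) and the receptor Tacr1 at -0.13 (SE 0.0668, adjusted p = 0.478). Of the other RF-amide peptides and receptors, 6 of 8 were tested and 0 passed (median 0.23), with the receptors Qrfpr at 0.46 (SE 0.167, adjusted p = 0.264) and Prlhr at 0.31 (SE 0.214, adjusted p = 0.645). For receptor signalling 0 of 11 passed (median 0.02), with the channel Trpc4 at -0.06 (SE 0.0813, adjusted p = 0.863) and the G protein subunit Gna11 at -0.03 (SE 0.0364, adjusted p = 0.825).

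In the other 5 comparisons, 0 genes of the 7 lists passed in edgeR. The smallest adjusted p between housings in control mice was 0.410, for Prlhr, the receptor of prolactin-releasing peptide, which was at 1.31 ± 0.212 CPM for SS mice and 0.770 ± 0.147 CPM for OS mice (SD, n = 5, log2 fold change -0.76, SE 0.235, unadjusted p = 0.00534).

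**Figure D4:**
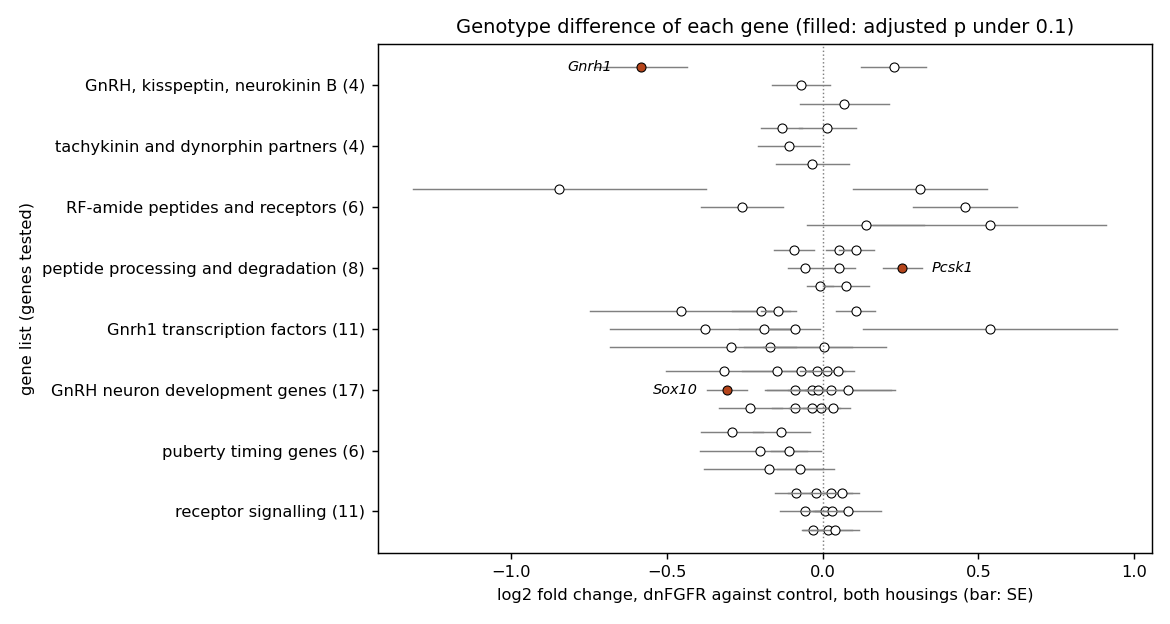
Log2 fold change between genotypes over both housings (horizontal axis, bar 1 SE) for each tested gene of the 6 described here and of the 7 pathway lists, with the number of genes tested in brackets. Filled points are Gnrh1 at -0.58, Pcsk1 at 0.26 and Sox10 at -0.31, the genes with an adjusted p under 0.1.

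The dissected tissue carried markers of the POA and of its surroundings. All 7 preoptic markers had reads in all 20 mice, and their sum was 43.4 ± 5.94 CPM in control and 39.1 ± 6.64 CPM in dnFGFR mice (SD, n = 10), with ranges of 35.2 to 55.8 and 23.1 to 46.3. None of the 7 passed between genotypes over both housings (smallest adjusted p 0.231, edgeR). Of the 7, 5 lay below 0 and 2 above (median -0.11), and 1, Nkx2-1, had an unadjusted p under 0.05 in edgeR. The lowest sum, 23.1 CPM, was in dnFGFR OS replicate 2, whose Gnrh1 was the highest of the dnFGFR mice at 1.85 CPM. That mouse also had the highest sum of the arcuate markers described below, at 81.7 CPM. Whether Gnrh1 followed the preoptic sum over the mice was not tested.

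The 5 markers of the septum and diagonal band, where part of the GnRH neurons lie, summed to 170 to 215 CPM in control mice (mean 196) and 121 to 192 CPM in dnFGFR mice (mean 166), in the same direction as Gnrh1. None of the 5 passed (smallest adjusted p 0.136, edgeR), though all 5 lay below 0 with a median of -0.21. Of these, 4 had an unadjusted p under 0.05 in edgeR. Striatal markers summed to 2389 to 3093 CPM in control and 1548 to 2795 CPM in dnFGFR mice. All 6 lay below 0 between genotypes (median -0.24), each with an unadjusted p under 0.05 in edgeR. Of these, 2 passed the threshold, Drd2 (-0.27, adjusted p = 0.0314) and Rgs9 (-0.27, adjusted p = 0.0245), where 1.33% of all 17445 genes were called. The part of the septal and striatal markers in the Gnrh1 difference was not tested.

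Arcuate markers, from the region of the Kiss1 and Tac2 neurons that pace GnRH, had reads of all 5 genes in all mice, with sums of 38.3 to 68.4 CPM in control and 30.1 to 81.7 CPM in dnFGFR mice, and 0 of 5 passed in any comparison. Nearly all of the sum came from Npy (mean 31.9 CPM over the 20 mice) and Cartpt (17.5 CPM). Pomc, Agrp and Ghrh were at 1.03, 0.837 and 0.351 CPM. How much arcuate tissue the block held was not tested. Pituitary markers, from the tissue where Gnrhr is mainly expressed, summed to 0.767 to 6.28 CPM in control and 0.678 to 1.69 CPM in dnFGFR mice. Of the gonadotrope genes, Lhb had reads in 19 of 20 mice, with 0.648 and 0.672 CPM in control SS and OS and 0.377 and 0.345 CPM in dnFGFR SS and OS mice. Cga had reads in 3 mice and Fshb in 1, all of them controls. Whether pituitary tissue had a part in the Gnrhr reads was not tested. Choroid plexus markers were at a mean of 340 CPM in control SS and 1215 CPM in control OS mice, the groups between which Kiss1 differed most. The control mice with the most Kiss1 reads, OS replicates 5 and 4, had 54.28 and 1915 CPM of these markers. Their part in the Kiss1 difference was not tested.

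**Figure D5:**
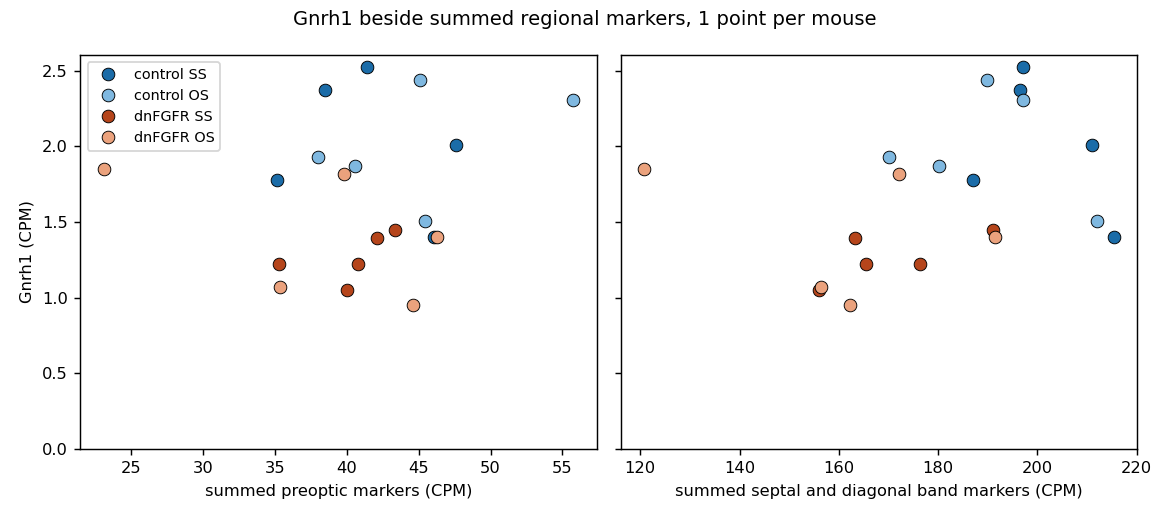
Gnrh1 (vertical axis, CPM) against the summed preoptic markers (left, CPM) and the summed septal and diagonal band markers (right, CPM), with 1 point per mouse coloured by group. The dnFGFR mice lie lower on the Gnrh1 axis and, in the right panel, mostly to the left, and dnFGFR OS replicate 2 stands apart at 23.1 and 121 CPM.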

How the data were processed

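The authors had reads of each POA library aligned with HISAT2 to GRCm38 and counted per RefSeq gene with Rsubread, and the deposited values are raw counts per gene. Whether strand was used, and how reads matching more than 1 gene were handled, is not given in the sources used here. Sacrifice dates came from the sample sheet of the study and served only to group mice. The table also holds 20 columns that belong to no sample described here, and these were not used. Members, lists and tests were chosen with earlier results of these data known.

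Counts were tested with edgeR 4.0.16 (R 4.3.3, TMM, filterByExpr, quasi-likelihood test) on the mice of each comparison, with Benjamini-Hochberg adjustment over all genes and a threshold of 0.1. Genes were named if members, if past the threshold in a pathway list, or else as the 2 genes of a list with the smallest p in any of 3 comparisons (both housing comparisons and genotype over both housings), so they need not be the smallest for genotype. Single members were compared in CPM by exact permutation (threshold 0.05), and correlations used log2 CPM with a prior count of 2 and 100000 permutations within groups. RPKM used the exonic length of GENCODE M21. Alternatives were DESeq2 1.42.0, RLE size factors, no filter, all 4 groups in 1 fit, shared sacrifice dates, plain library sizes, the replicate block and each mouse left out. The edgeR steps were tested on simulated data with log2 changes of 1 in 200 genes above 1 CPM. For genotype over both housings, 195 of these genes were called, and so were 15 unchanged genes. Smaller changes, such as that of Gnrh1, and changes in genes as low as Kiss1 and Gnrhr were not simulated. Totals of 32353578 to 39871353 reads per mouse limit genes such as Kiss1 and Gnrhr, and floors cover counting error only. P-values of the comparisons set a difference against the spread between the mice of a group. Those between genotypes cannot tell genotype from sacrifice date.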

Additional observations from a re-analysis of the deposited data

How the results depend on the processing

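The Gnrh1 difference between genotypes over both housings kept its direction in every alternative run for it and passed in edgeR with RLE size factors or without the filter, and in DESeq2. Replicate numbers did not pair the mice (4 of 30 same-numbered pairs had correlated deviations over 0.1, from -0.235 to 0.259). With the replicate block it was -0.594 on the log2 scale (edgeR, adjusted p = 0.107), and leaving out 1 mouse gave -0.642 to -0.533 (adjusted p from 0.0411 to 0.133). In the exact permutation tests with the block (sign flips, where 5 pairs cannot give a p below 0.0625), differences in CPM had p = 0.0625 for Gnrh1 in SS mice (-0.75), Gnrh1 in OS mice (-0.593), Kiss1 between housings in control mice (0.228), Kiss1 between genotypes in OS mice (-0.215) and, over both housings, Gnrhr between genotypes (0.0228). The block changed no other call of a member. The Gnrh1 housing difference in control mice turned to 0.00406 (log2) with the block, 0.105 on shared dates with a date block, 0.00592 on log2 CPM and 0.0027 CPM with plain library sizes, and in dnFGFR mice to -0.183 on shared dates. Kiss1 and Gnrhr, which did not pass the filter, had no fitted value on shared dates. The Gnrhr housing difference in dnFGFR mice turned to 0.0233 on log2 CPM, and the correlation of Tac2 and Gnrhr to -0.0515 on CPM.

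Counts of genes called by DESeq2 were 157 for housing in control mice, 5 in dnFGFR mice, 425 for genotype over both housings, 225 in SS mice, 78 in OS mice and 1 for the interaction, and 1 pathway gene was called in SS mice. With all groups in 1 fit, 0 genes were called for housing in control mice and 45 for genotype in OS mice, shared dates left 1 gene for housing in control mice, and the block left 3 genes for genotype in OS mice.

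With 1 mouse left out, genes called ranged from 0 (without control SS replicate 4) to 32 (without control OS replicate 5) for housing in control mice, from 21 to 70 (without dnFGFR SS replicates 1 and 5) for genotype in SS mice and from 3 (without control OS replicate 1, dnFGFR OS replicate 1 or dnFGFR OS replicate 3) to 16 (without dnFGFR OS replicate 2) for genotype in OS mice. Pathway genes called ranged from 1 to 2 for genotype over both housings and from 0 to 1 in SS mice. Log2 fold changes that turned ranged from -0.115 to 0.0868 for Gnrh1 and from -0.0937 to 0.0582 for Tacr3 with housing in control mice, from -0.0765 to 0.0544 for Kiss1r in SS mice and from -0.223 to 0.0567 for Tac2 in OS mice.

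Differences in CPM under the exact permutation tests with 1 mouse left out crossed 0 or the threshold for Gnrh1 between genotypes in OS mice (-0.72 to -0.475) and with housing in control mice (-0.16 to 0.122), Kiss1 between genotypes in OS mice (-0.262 to -0.135), Kiss1r with housing in dnFGFR mice (-1.89 to -1.05) and between genotypes in SS mice (-0.41 to 0.322), Tac2 with housing in control mice (0.528 to 1.9) and between genotypes in SS mice (1.48 to 2.72) and OS mice (-1.49 to 0.44), Tacr3 with housing in control mice (-0.771 to 0.511) and in dnFGFR mice (0.264 to 2.69) and between genotypes over both housings (1.65 to 2.86), in SS mice (0.926 to 2.1) and in OS mice (1.85 to 4.28), and Gnrhr with housing in dnFGFR mice (-0.00893 to 0.00819) and between genotypes in OS mice (0.0143 to 0.0279). Without dnFGFR OS replicate 5, the mouse with the fewest genes detected, correlations turned for Kiss1 and Tacr3 (0.047), Kiss1r and Tac2 (-0.0113), Tac2 and Tacr3 (0.406) and Tac2 and Gnrhr (-0.382). The cause of these changes was not tested.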
